A study of Mus musculus with 12 samples.

Results

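The genes described here are 10 genes of protein folding in the endoplasmic reticulum (ER) and of its stress response. They were taken by symbol from a table of 23420 genes. Hspa5, Hsp90b1, Calr and Canx encode chaperones, Pdia3, Pdia4, Pdia6 and P4hb encode protein disulfide isomerases, and Xbp1 and Atf4 encode transcription factors of the unfolded protein response. All 10 symbols were found, each once. RNA was measured in 12 libraries from sorted mouse fetal liver cells, each made from a tube of 100 cells. Every library came from lineage-negative, cKIT+ cells, sorted by flow cytometry for the presence or absence of PIR, the paired immunoglobulin-like receptor. PIR+ and PIR- cells were each taken from wild-type and from KO embryos, which gives 4 groups of 3 libraries. The labels give an age of E12.5 for some libraries and E14.5 for others, and by the labels each group holds both. These ages are uncertain, as set out with the label fields below. The labels name no gene for the KO, so the targeted gene was not checked, and they give no strain, number of embryos or pooling. Nothing in them tells whether replicate libraries stand for different animals, and p-values therefore cover only the spread among the samples at hand.

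The ER folds and glycosylates proteins that are secreted or placed in membranes. When unfolded proteins gather there, membrane sensors act through transcription factors that include XBP1, ATF6 and ATF4, which raise chaperone, isomerase and degradation genes. Blood cell progenitors and antibody-forming B cells are both known to depend on this response, the B lineage in particular on XBP1 when it turns to secretion.

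The promoters of the members are shown first, because they divide the chaperones from most isomerases and from the regulators. A promoter here is the 250 bases before and the 50 after a RefSeq start site (GRCm38.p6), and all 10 members had one. For Pdia4 and Xbp1 the bases checked after the start were not found in the gene's GENCODE transcripts. The absence of a motif is less certain for these. The ER stress response element, bound by ATF6 together with NF-Y, is CCAAT and CCACG with 9 bases between them. On either strand it was found in 5 of the 10 members, Hspa5, Hsp90b1, Calr, Canx and Pdia6, and in 37 of 27025 genes (0.137%). Each window below is written along the gene, with both parts of the element in capitals; CGTGG and ATTGG are the same parts on the other strand. Hsp90b1 has one copy in each orientation.
Hspa5, chr2:34772015-34772053, plus strand: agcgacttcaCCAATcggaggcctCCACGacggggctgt
Hsp90b1, distal, chr10:86705628-86705666, minus strand: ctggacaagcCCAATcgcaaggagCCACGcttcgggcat
Hsp90b1, proximal, chr10:86705523-86705561, minus strand: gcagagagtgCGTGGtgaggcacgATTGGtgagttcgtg
Calr, chr8:84847065-84847103, minus strand: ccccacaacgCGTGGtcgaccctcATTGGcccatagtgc
Canx, chr11:50325790-50325828, minus strand: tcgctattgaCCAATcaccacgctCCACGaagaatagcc
Pdia6, chr12:17266481-17266519, plus strand: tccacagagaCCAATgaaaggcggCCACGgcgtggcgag
The 9 bases between the parts differ among all 6 copies. Counted from the start site, the element began at -65 in Hspa5, -98 in Pdia6, -145 in Canx and -162 in Calr, and at -212 and -107 in Hsp90b1.

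The other motifs searched, on both strands, were found in none of the 10 promoters. They were the second form of the element, ATTGG and CCACG with 1 base between them (12 of 32851 promoters, 0.0365%), the unfolded protein response element TGACGTGG (0.676%) and the ATF4 and C/EBP composite site, TGATG and AAT with 1 base between them (0.965%). The CCAAT box alone, which is also the first part of the ER stress response element, was in 9 of 10 members and in 41.1% of all genes with a promoter, Xbp1 being the member without it. These are matches of letters in one window per start site, and no binding was measured.

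**Figure D1:**
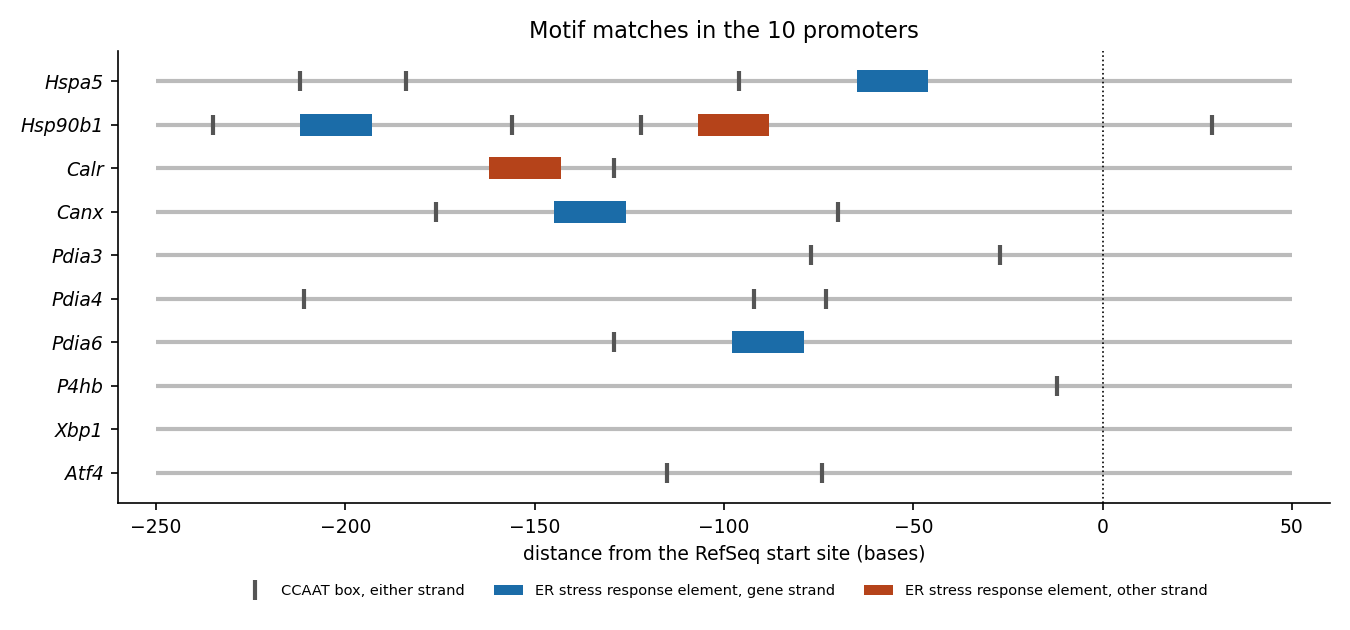
Motif matches in the 10 promoters, drawn along the distance in bases from the RefSeq start site (dotted line). Wide bars are the ER stress response element, coloured by strand, and short ticks are CCAAT boxes outside it; 5 genes carry the element, Hsp90b1 in 2 copies.

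Several facts of the whole series bear on the values. Groups follow the sample titles. A second label field gives the opposite PIR sign in 6 of the 12 libraries. The stage in the labels goes with that field, E12.5 where it reads PIR+ and E14.5 where it reads PIR-. If the field was misassigned, the stages may be too, and PIR sign and stage could then not be told apart. A fit with the labelled stage as a term would not adjust for that. Pira1, Pira2 and Lilrb3, which encode the receptors sorted on, were listed at 0 in all 6 libraries titled PIR- and above 0 in all 6 titled PIR+. The same field lists every library as IL7Ra+ whereas the series title calls PIR- cells IL7R-, and Il7r ran from 9.7 to 24.4 over the 12 libraries. Deposited sums ran from 155374 to 284648 per library, for an estimated 208195 to 442533 molecules. The PIR+ libraries had larger sums than the PIR- libraries of the same genotype in all but 1 KO pairing, since PIR+ KO replicate 2 (216841) lay under PIR- KO replicate 3 (222700). Globin RNA was high in 5 libraries (Hba-a1 over 300), namely PIR+ wild type 3, PIR- wild type 2 and 3, PIR+ KO 1 and PIR- KO 1. A fit without these 5 keeps PIR- wild-type replicate 1 alone in its group. For that fit, only the size of a wild-type difference is therefore given.

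Values are normalized molecule counts as the authors deposited them, with fold changes on the scale log2(value + 1). The fit was limma on all 12 libraries and 4542 genes, and a gene was called at a Benjamini-Hochberg adjusted p under 0.05 over those genes. Of the 10 members, 9 passed the filter of 10 in at least 3 libraries; Pdia4 did not and is described by its values. On the deposited scale the median tested gene was 0.51 higher (log2) in PIR+ than in PIR- cells of wild type and 0.39 higher in KO. Fold changes are therefore often followed by their value after median-of-ratios scaling, which brings the median gene to 0.02 and 0.01.

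In wild type, 6 of the 9 tested members were higher in PIR+ than in PIR- cells and none was lower. They were Calr, Pdia6, P4hb, Xbp1, Hspa5 and Canx, at 1.38- to 1.87-fold. The share of all tested genes called higher was 40.6%, and the members' median of 0.63 stood beside 0.51 for all tested genes. After scaling, Calr, Pdia6 and P4hb were still called higher (all genes 11.5%) and Atf4 was called lower (all genes 11.0%). On the deposited scale 4 of the tested members, Calr, Pdia6, P4hb and Xbp1, had no overlap between the groups, which held for 52.0% of all tested genes. In sorted bulk samples of this kind, fewer cells of a type and less RNA per cell cannot be told apart.

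Calr encodes calreticulin, a lectin chaperone of the ER lumen that also holds calcium (chromosome 8, 84841850 to 84846934, minus strand, GRCm38). The PIR+ wild-type libraries held 182.8, 213.7 and 214.9, and the PIR- ones 100.2, 119.3 and 114.1. The lowest PIR+ library lay well above the highest PIR- library. In KO it was 161.8, 136.6 and 191.6 in PIR+ and 109.6, 147.6 and 146.9 in PIR- cells, so there the groups overlapped. Calr rose 1.83-fold in PIR+ wild type (log2 0.87 ± 0.18 SE, adjusted p = 4.97e-05; after scaling 0.35 ± 0.10, adjusted p = 0.00817). It was called on both scales with any single library left out. After scaling the PIR+ wild-type libraries held 170.6 to 190.7, and the other 9 libraries 127.0 to 163.5, so that this group stood apart from the remaining 3.

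Hspa5 encodes BiP, the Hsp70 of the ER, which binds unfolded chains and holds the stress sensors inactive (chromosome 2, 34771970 to 34777547, plus strand). It was 56.5, 64.5 and 91.5 in PIR+ wild type, and 40.8, 41.0 and 69.8 in PIR- wild type. The third library of each subset was the highest, and the groups overlapped. The PIR+ KO libraries held 73.3, 61.2 and 75.3 and the PIR- KO libraries 57.2, 62.3 and 66.9, again with overlap. The difference in wild type was 0.50 ± 0.21 (adjusted p = 0.0417), and -0.01 ± 0.14 after scaling (adjusted p = 0.966). The call was lost without PIR+ wild-type replicate 3 (0.30, adjusted p = 0.314), replicate 2 (adjusted p = 0.0600), PIR- wild-type replicate 1 (0.208) or 2 (0.200), or PIR- KO replicate 2 (0.0503). The fit without a filter did not call it either (adjusted p = 0.116). Without the globin-rich libraries the difference was 0.55. After scaling the 4 group means lay between 57.5 and 67.6, with SDs from 4.14 to 14.0, and no neighbours in that order differed beyond their spread. The ends of the order did not overlap, PIR+ KO at 52.9 to 62.7 and PIR- KO at 63.0 to 70.9. That difference was not called (-0.23 ± 0.14, limma adjusted p = 0.315).

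Canx encodes calnexin, the membrane-bound lectin chaperone that works beside calreticulin (chromosome 11, 50293961 to 50325673, minus strand). It was 73.6, 96.0 and 94.9 in PIR+ wild type, and 52.5, 59.6 and 79.9 in PIR- wild type. PIR- replicate 3 lay above PIR+ replicate 1. In KO it was 80.0, 68.1 and 101.9 against 65.7, 80.1 and 83.0. The difference in wild type was 0.47 ± 0.20 (adjusted p = 0.0441), and -0.04 ± 0.12 after scaling (adjusted p = 0.841). This call was lost when any of 6 libraries was left out, PIR+ wild-type replicates 2 (adjusted p = 0.154) and 3 (0.144), PIR- wild-type replicates 1 (0.232) and 2 (0.124), PIR+ KO replicate 1 (0.0528) and PIR- KO replicate 2 (0.0546). Nor was Canx called in the fit without a filter (adjusted p = 0.105) or with embryonic day as a term (0.0536). Without the globin-rich libraries the difference was 0.67.

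Hsp90b1 encodes GRP94, the Hsp90 of the ER (chromosome 10, 86690209 to 86705509, minus strand). It was 73.0, 76.9 and 94.9 in PIR+ wild type and 58.8, 83.6 and 75.3 in PIR- wild type, with overlap. The KO libraries held 96.9, 67.6 and 118.6 in PIR+ and 74.7, 66.9 and 74.9 in PIR- cells. PIR+ KO replicate 3 was the highest of all 12 libraries. The difference in wild type was 0.17 ± 0.20 (adjusted p = 0.463), and -0.34 ± 0.14 after scaling (adjusted p = 0.0741). Transcripts of 1810014B01Rik, on the opposite strand, and of Gm15344 and Gm25745 overlap this gene, and whether counting used strand is not given in the sources used here.

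**Figure D2:**
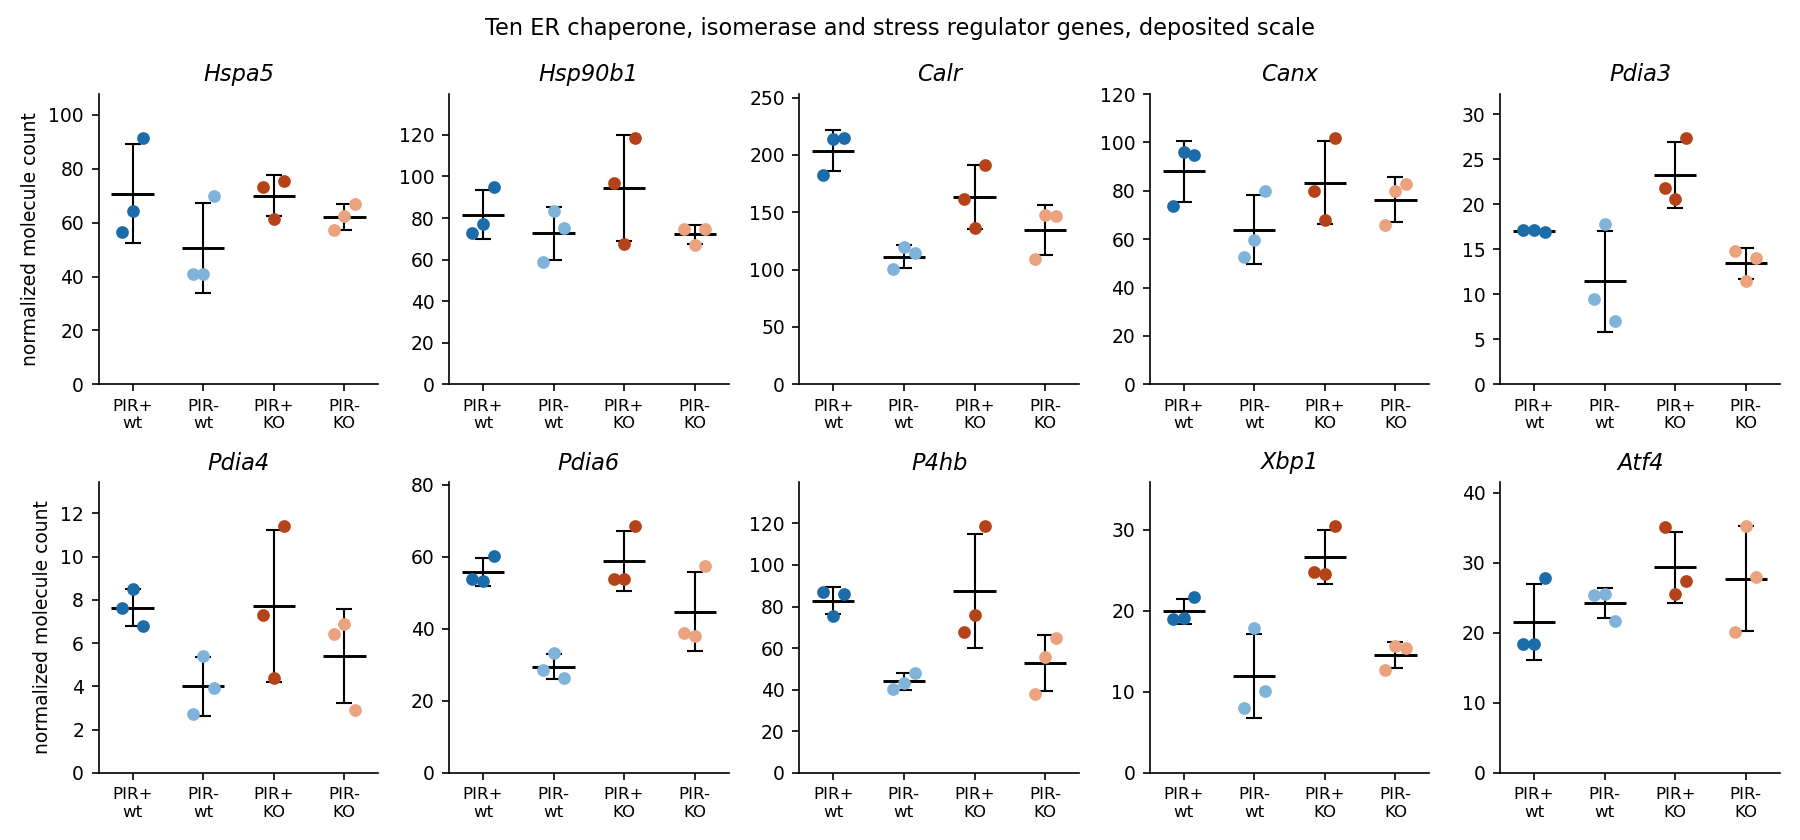
Normalized molecule counts of the 10 genes as deposited, one panel per gene with its own axis from 0; points are the 3 libraries of each group, the long bar is the mean and the whiskers 1 SD. In wild type the PIR+ points of Calr, Pdia4, Pdia6, P4hb and Xbp1 all lie above the PIR- points, as Calr shows with 182.8 to 214.9 over 100.2 to 119.3.

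Among the isomerases, which make and rearrange disulfide bonds, Pdia6 and P4hb showed the clearest separation between the wild-type subsets. P4hb, which also forms the beta subunit of prolyl 4-hydroxylase (chromosome 11, 120560298 to 120573253, minus strand), was 86.9, 75.6 and 86.1 in PIR+ and 40.3, 43.4 and 48.1 in PIR- cells of wild type. All PIR+ libraries lay far above all PIR- libraries. P4hb rose 1.87-fold (0.90 ± 0.20, adjusted p = 0.000249; after scaling 0.39 ± 0.14, adjusted p = 0.0419). The deposited call was kept with any single library left out. The scaled call was lost without PIR+ wild-type replicate 1 (0.29, adjusted p = 0.200) or 3 (0.0524), any PIR- wild-type library (0.0657 to 0.0888) or PIR+ KO replicate 2 (0.0501). Without the globin-rich libraries the scaled difference was 0.45.

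Pdia6 (chromosome 12, 17266545 to 17284770, plus strand) was 53.9, 53.3 and 60.3 in PIR+ wild type and 28.6, 33.3 and 26.4 in PIR- wild type. The groups did not overlap. It rose 1.87-fold (0.91 ± 0.21, adjusted p = 0.000343; after scaling 0.40 ± 0.15, adjusted p = 0.0475). The deposited call was kept with any single library left out. The scaled call was lost in 10 of 12 such fits, where the adjusted p reached 0.269 without PIR- wild-type replicate 3. Without the globin-rich libraries the difference was 0.88, and 0.34 after scaling. The 3′ end of Pdia6 overlaps Atp6v1c2 on the opposite strand, and the protocol primes at poly(A) tails.

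Pdia3, the ERp57 isomerase that acts with calreticulin and calnexin (chromosome 2, 121413775 to 121438687, plus strand), was 17.1, 17.1 and 16.9 in the PIR+ libraries of wild type. The PIR- libraries held 9.5, 17.8 and 7.0. Replicate 2 of the PIR- group was above all PIR+ libraries, while the other two were far below. The difference was 0.63 ± 0.28 (adjusted p = 0.055; after scaling 0.15 ± 0.27, adjusted p = 0.747), and without PIR- replicate 2 it was 0.98 (adjusted p = 0.00926). It was also called without PIR- KO replicate 3 (adjusted p = 0.0498). These levels rest on an estimated 9 to 42 molecules per library, where counting alone gives a CV of 33.3% at the lowest. Its 5′ end overlaps Catsper2 on the opposite strand.

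Pdia4 (chromosome 6, 47796141 to 47813430, minus strand) was the lowest member in molecules, at an estimated 4 to 15 per library. The PIR+ libraries held 7.6, 8.5 and 6.8 in wild type and 7.3, 4.4 and 11.4 in KO, and the PIR- libraries 2.7, 5.4 and 3.9 in wild type and 6.4, 6.9 and 2.9 in KO. The wild-type groups did not overlap and the KO groups did. In the fit without a filter the wild-type difference was 0.82 ± 0.38 (adjusted p = 0.147; after scaling 0.39 ± 0.37, adjusted p = 0.596).

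Xbp1 encodes a transcription factor whose RNA is spliced by the sensor IRE1 on stress; the spliced and unspliced forms were not analysed here. The gene (chromosome 11, 5520659 to 5525893, plus strand) was 19.0, 19.1 and 21.7 in PIR+ wild type, and 8.0, 17.8 and 10.1 in PIR- wild type. The groups did not overlap, though PIR- replicate 2 came close. Xbp1 rose 1.69-fold (0.76 ± 0.27, adjusted p = 0.0164), but was not called after scaling (0.28 ± 0.23, adjusted p = 0.439). The deposited call was lost without PIR+ wild-type replicate 3 (0.70, adjusted p = 0.0693) or PIR- wild-type replicate 1 (0.53, adjusted p = 0.149). PIR- wild-type replicate 2 was thus the highest library of its group for both Xbp1 and Pdia3.

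Atf4, the factor made when the sensor PERK or related kinases slow translation (chromosome 15, 80255184 to 80257541, plus strand), was the one tested member that was not higher in PIR+ wild type by its mean. It was 18.4, 18.4 and 27.8 in PIR+ and 25.4, 25.6 and 21.7 in PIR- cells of wild type. PIR+ replicate 3 was the highest of these 6 and the other PIR+ libraries were the lowest. The difference was -0.19 ± 0.24 (adjusted p = 0.523), and -0.68 ± 0.20 after scaling (adjusted p = 0.0148). The scaled values were 17.9, 16.4 and 22.1 in PIR+ and 34.5, 33.7 and 24.5 in PIR- cells of wild type, without overlap. This scaled call was lost without PIR+ wild-type replicate 2 (-0.59, adjusted p = 0.0745), PIR- wild-type replicate 1 (-0.60, 0.0654) or replicate 2 (-0.62, 0.0536).

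**Figure D3:**
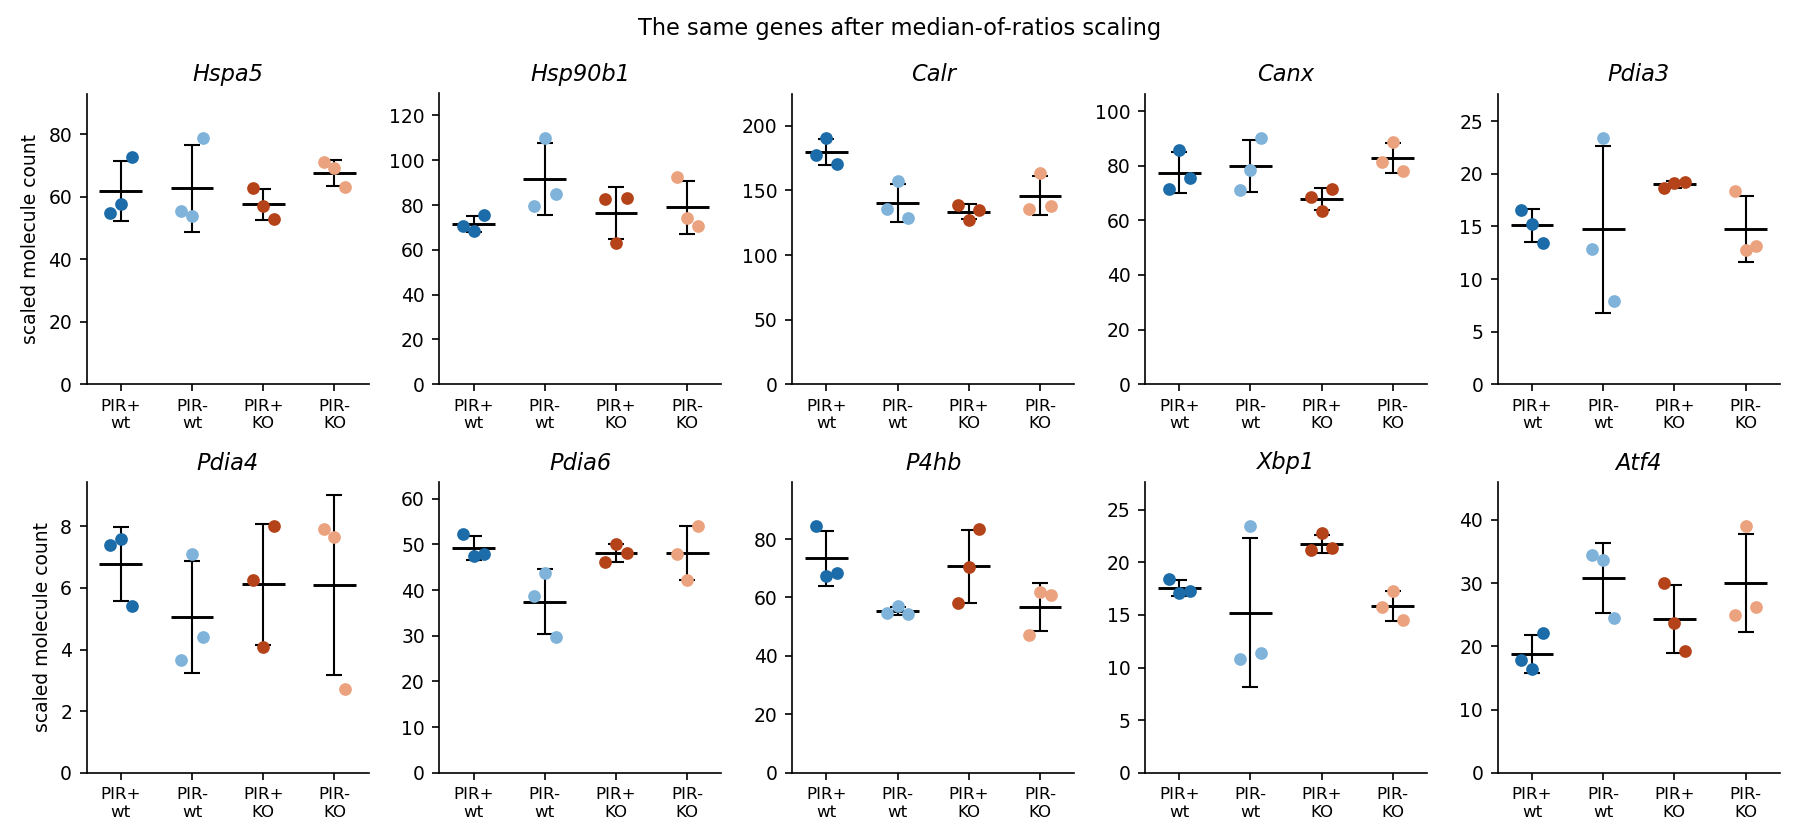
The same 10 genes after median-of-ratios scaling, with points, means and SD whiskers as for the deposited values and axes from 0. The PIR+ wild-type points of Calr lie above the other 9 libraries, and those of Atf4 lie below the 3 PIR- wild-type libraries.

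In KO, 3 of the 9 tested members were higher in PIR+ than in PIR- cells, Pdia3, P4hb and Xbp1, against 22.5% of all tested genes called higher. The same 3 had no overlap between the groups, which held for 39.1% of all tested genes. No member was called after scaling, in either direction, where 15.6% of all tested genes were called. Before adjustment and before scaling, the limma p was under 0.05 for the same 3. After scaling it was under 0.05 for 2 members, P4hb, which was higher (0.31 ± 0.14), and Canx, which was lower (-0.28 ± 0.12).

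Xbp1 was 24.8, 24.5 and 30.4 in PIR+ KO and 12.7, 15.6 and 15.4 in PIR- KO. Every PIR+ library was well above every PIR- library. It rose 1.77-fold (0.82 ± 0.27, adjusted p = 0.0155; after scaling 0.44 ± 0.23, adjusted p = 0.225). Xbp1 in the PIR+ KO libraries was also above the 9 other libraries on the deposited scale, while after scaling PIR- wild-type replicate 2 (23.4) exceeded it.

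P4hb was 67.9, 75.9 and 118.6 in PIR+ KO and 38.1, 55.9 and 64.7 in PIR- KO. The closest libraries of the groups were only a few units apart, and PIR+ replicate 3 was far above the rest. The difference was 0.71 ± 0.20 (adjusted p = 0.00625; after scaling 0.31 ± 0.14, adjusted p = 0.146). Pdia3 was 21.8, 20.6 and 27.4 in PIR+ KO against 14.8, 11.5 and 14.0 in PIR- KO, a difference of 0.75 ± 0.28 (adjusted p = 0.0367; after scaling 0.36 ± 0.26, adjusted p = 0.419).

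These calls rested on few libraries. Without PIR+ KO replicate 3 none of the 3 was called (adjusted p = 0.172 for Pdia3, 0.145 for P4hb and 0.0870 for Xbp1). Without PIR- KO replicate 1 none was called either (0.0575, 0.119 and 0.0766). Pdia3 was also lost without PIR+ KO replicate 1 (0.0653) or PIR- KO replicate 2 (0.134). Without the globin-rich libraries, which leaves 2 in each KO group, they were 0.0890, 0.0923 and 0.117. In turn Hsp90b1 was called without PIR+ KO replicate 2 (0.57, adjusted p = 0.0364) and Pdia6 without PIR- KO replicate 3 (0.59, adjusted p = 0.0351).

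The remaining 6 tested members were not called between the KO subsets. Pdia6 was 53.9, 53.9 and 68.4 in PIR+ KO and 38.7, 38.1 and 57.3 in PIR- KO, a difference of 0.40 (adjusted p = 0.142). Only PIR- replicate 3 overlapped the PIR+ range. The difference was 0.28 for Calr (adjusted p = 0.235), 0.35 for Hsp90b1, 0.17 for Hspa5, 0.11 for Canx and 0.10 for Atf4, for which the libraries held 35.1, 25.5 and 27.4 in PIR+ and 20.1, 35.2 and 27.9 in PIR- cells. All 5 lay below the median gene's 0.39. After scaling their signs turned, to -0.12 ± 0.10 for Calr, -0.05 ± 0.14 for Hsp90b1 and -0.23 ± 0.14 for Hspa5. Canx was then at -0.28 ± 0.12, Atf4 at -0.29 ± 0.20 and Pdia6 at 0.01 ± 0.15, none of them called. Whether the subset difference itself changed with genotype is the test of the interaction, given with the KO results.

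**Figure D4:**
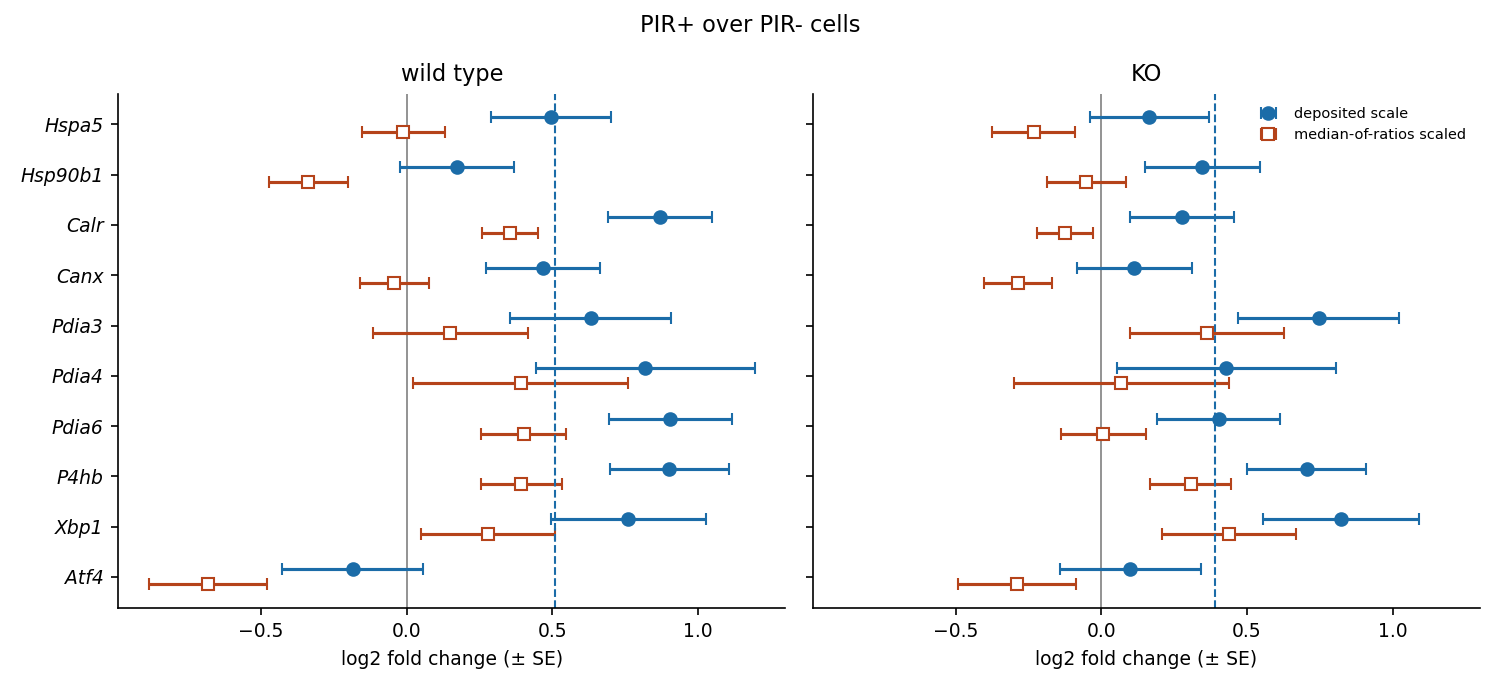
Log2 fold changes of PIR+ over PIR- cells (points, with 1 SE) in wild type and in KO, before (filled) and after (open) median-of-ratios scaling; Pdia4 is from the fit without a filter. The dashed line is the median of all tested genes before scaling, 0.51 and 0.39. In wild type Calr, Pdia4, Pdia6, P4hb and Xbp1 lie to its right with values from 0.76 to 0.91, and so does Pdia3 at 0.63.

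Averaged over the genotypes, with 6 libraries a side, 6 members were higher in PIR+ cells, Hspa5, Calr, Pdia3, Pdia6, P4hb and Xbp1, where 55.0% of all tested genes were called higher. The differences ran from 0.33 for Hspa5 (adjusted p = 0.0430) to 0.80 for P4hb (adjusted p = 2.27e-06), with 0.79 for Xbp1 (0.000272), 0.69 for Pdia3 (0.00214), 0.65 for Pdia6 (0.000144) and 0.57 for Calr (9.07e-05). P4hb and Xbp1 had all 6 PIR+ libraries above all 6 PIR- libraries, as did 20.1% of tested genes in one direction or the other. After scaling, P4hb was called higher (0.35, adjusted p = 0.00709; all genes 15.4%) and Atf4 lower (-0.49, adjusted p = 0.0106; all genes 14.2%). Both scaled calls were kept with any single library left out. The Hspa5 call was lost without any one of 7 libraries, PIR+ wild type 3 (adjusted p = 0.190), PIR- wild type 1 (0.137) and 2 (0.131), PIR+ KO 1 (0.0818) and 3 (0.0832), and PIR- KO 1 (0.0860) and 2 (0.0683).

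The other question of the design is what the KO changed within each subset. In PIR+ cells no member was called between KO and wild type on the deposited scale, where 0.903% of all tested genes were called, and limma's unadjusted p was under 0.05 for 0 members. After scaling, Calr fell by 0.43 on the log2 scale (SE 0.10, adjusted p = 0.0200), with 1.01% of all genes called; on the deposited scale its change was -0.33 ± 0.18 (adjusted p = 0.797). Its scaled values were 177.4, 190.7 and 170.6 in PIR+ wild type and 138.4, 127.0 and 134.5 in PIR+ KO. All 3 KO libraries lay below all 3 wild-type libraries after scaling, whereas the deposited ranges, 182.8 to 214.9 and 136.6 to 191.6, overlapped.

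The scaled Calr call was lost without PIR+ wild-type replicate 1 (-0.43, adjusted p = 0.0602) or 2 (-0.39, 0.131) and without PIR+ KO replicate 2 (-0.39, 0.125) or 3 (-0.43, 0.0718), its size changing little. The wild-type libraries of this comparison are the same that made Calr higher in PIR+ than in PIR- wild-type cells, so the differences share them. Calr per 10000 deposited units was 9.0, 9.43 and 8.47 in the PIR+ libraries of wild type and 6.81, 6.30 and 6.73 in those of KO. The PIR- libraries held 6.45, 7.39 and 6.08 in wild type and 6.45, 7.85 and 6.60 in KO. As a share of the library, too, the PIR+ wild-type libraries were the highest.

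Pdia3 and Xbp1 had all 3 PIR+ KO libraries above all 3 PIR+ wild-type libraries on the deposited scale, which held for 11.1% of all tested genes in either direction. Pdia3 was 20.6 to 27.4 in PIR+ KO against 16.9 to 17.1 in PIR+ wild type, a difference of 0.42 ± 0.28 (adjusted p = 0.916; after scaling 0.32 ± 0.26, 0.808). Xbp1 was 24.5 to 30.4 against 19.0 to 21.7, a difference of 0.39 ± 0.27 (adjusted p = 0.917; after scaling 0.29 ± 0.23, 0.791). Neither passed the test across all genes. Atf4 differed by 0.44 ± 0.24 (adjusted p = 0.797), and the remaining members lay between -0.09 ± 0.20 for Canx and 0.18 ± 0.20 for Hsp90b1. The median gene was 0.09 higher in PIR+ KO.

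In PIR- cells no member was called between KO and wild type either, where 1.30% of all tested genes were called on the deposited scale and 1.70% after scaling. Limma's unadjusted p was under 0.05 for 1 member, Pdia6. It was 38.7, 38.1 and 57.3 in PIR- KO against 28.6, 33.3 and 26.4 in PIR- wild type. The groups did not overlap, as for 15.4% of all tested genes, and Pdia6 alone of the 9 did so. Its difference was 0.57 ± 0.21 (adjusted p = 0.200; after scaling 0.36 ± 0.15, adjusted p = 0.292), beside 0.20 for the median gene. The other tested members lay between 0.01 ± 0.20 for Hsp90b1 and 0.34 ± 0.21 for Hspa5, with Calr at 0.26 ± 0.18.

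The difference of the KO effect between PIR+ and PIR- cells was called for no member and for 0.572% of all tested genes. It was largest for Calr, at -0.59 ± 0.25 (adjusted p = 0.664; after scaling -0.48 ± 0.14, adjusted p = 0.138), the only member with limma's unadjusted p under 0.05. The KO effect averaged over the subsets was called for no member and for 1.78% of all tested genes. It was 0.36 ± 0.20 for Pdia3, 0.36 ± 0.19 for Xbp1, 0.32 ± 0.15 for Pdia6 and 0.30 ± 0.17 for Atf4 (adjusted p = 0.386, 0.365, 0.306 and 0.413), and Pdia6 was the 1 member with an unadjusted p under 0.05.

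**Figure D5:**
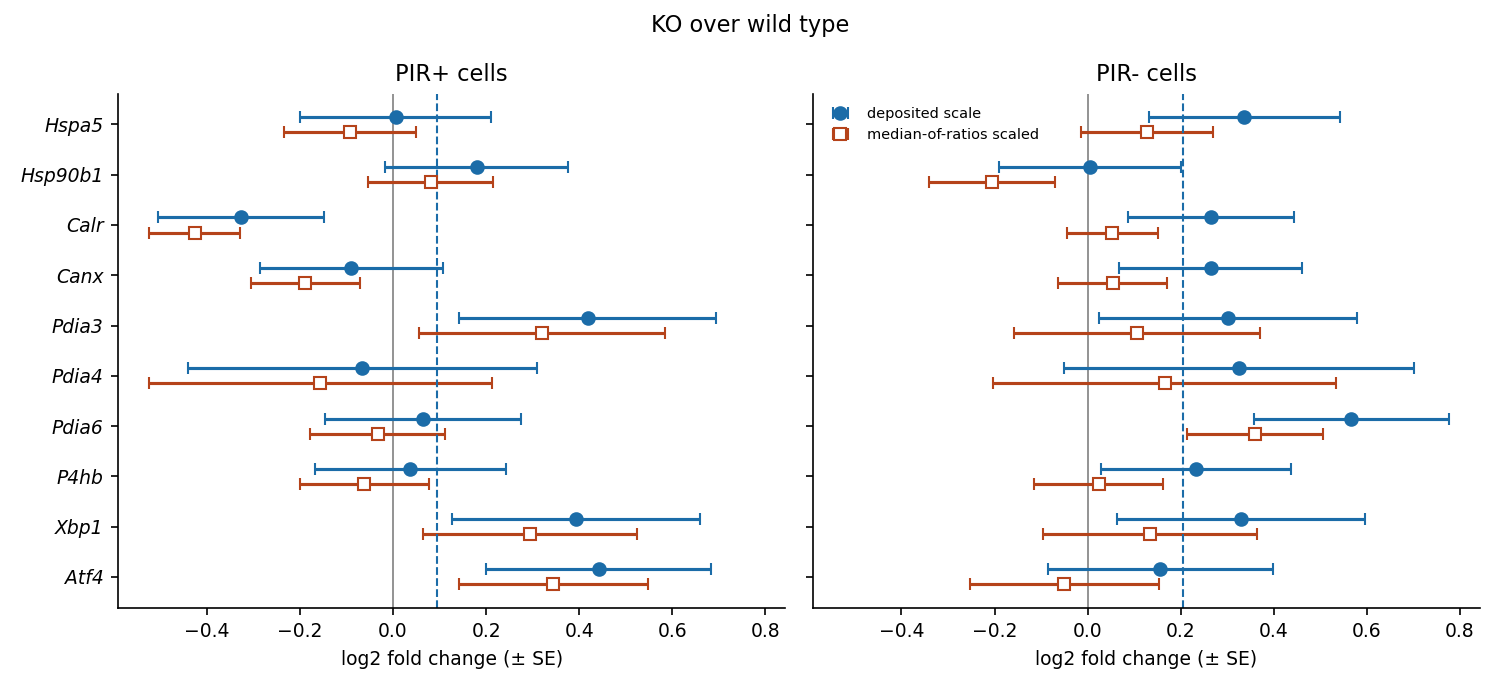
Log2 fold changes of KO over wild type (points, with 1 SE) in PIR+ and in PIR- cells, before (filled) and after (open) median-of-ratios scaling; Pdia4 is from the fit without a filter. The dashed line is the median of all tested genes before scaling, 0.09 and 0.20; Calr in PIR+ cells, at -0.43 after scaling, is the one called value.

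The authors' deposited table holds p-values of its own for 2 contrasts, the wild-type subsets and the PIR+ cells of both genotypes, without saying whether they are adjusted. In the authors' deposited table Calr has 0.00853 in the first and 0.000228 in the second, the lowest of the 10 members in each. For the wild-type subsets the authors' deposited table also has P4hb at 0.0457 and Atf4 at 0.0229 among values under 0.05, with Hsp90b1 at 0.0806, Pdia6 at 0.0909, Pdia4 at 0.430, Xbp1 at 0.555, Canx at 0.850, Hspa5 at 0.909 and Pdia3 at 0.944. For the KO comparison the other 9 members run from 0.201 (Atf4) to 0.906 (Pdia6) in the authors' deposited table.

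As a group, the 10 members made up 0.236% to 0.290% of the deposited sum of a library. In wild type the share was 0.285% ± 0.0040 for PIR+ and 0.252% ± 0.0218 for PIR- cells, and in KO 0.260% ± 0.0114 and 0.261% ± 0.0143 (SD, n = 3). The PIR+ wild-type libraries were all above the rest, and the 3 other groups overlapped. Calr is part of this sum and was the largest member in every library. Taken singly, Calr alone had a larger share in every PIR+ wild-type library than in all the rest. For each other member, some library of another group exceeded the lowest PIR+ wild-type share. Without Calr the summed share did not set PIR+ wild type apart. PIR- wild-type replicate 2 (446.8 less 119.3 for Calr, in a sum of 161351) then exceeded every PIR+ wild-type library. The highest of those was replicate 1 (588.8 less 182.8, in a sum of 203135).

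After scaling, and with each gene centred on its own mean, the members were compared by the root mean square of their log2 differences over the 12 libraries. Hspa5 and Canx were the closest pair (0.155), followed by Calr and Canx (0.201) and Pdia3 and Xbp1 (0.207). The pair farthest apart was P4hb and Atf4 (0.535). Among all tested genes, those nearest to Hspa5 were Edf1 (0.118), Smek2 (0.124), Odc1 (0.125), 1110038B12Rik (0.128) and Hells (0.129), where the median gene lay at 0.356. Those nearest to Xbp1 were Ccnl2 (0.154), Cmtm6 (0.162), Elovl1 (0.169), Gak (0.172) and Gltp (0.177), where the median gene lay at 0.444. None of these 10 is a member or on the ER lists. The likeness covers all 12 libraries at once and says nothing of function.

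The members' neighbours in the pathway were taken from lists of genes by role. The ER chaperones and cofactors, members included, had 15 of 21 genes tested. In wild type 9 of these were higher in PIR+ cells (all genes 40.6%) and 0 lower, with a median of 0.50 beside 0.51 for all tested genes. After scaling 2 were higher (all genes 11.5%) and 1 lower (all genes 11.0%). In KO 3 were higher (all genes 22.5%), and none was called after scaling. These shares of all genes apply to the same comparisons of each list that follows. Cnpy2, a small chaperone of the ER, was 26.1 ± 6.23 in PIR+ and 15.5 ± 2.04 in PIR- cells of wild type (0.70, adjusted p = 0.0192; after scaling 0.21, adjusted p = 0.475). Dnajc3, a co-chaperone of BiP whose promoter also held the ER stress response element, was 16.9 ± 3.64 and 7.10 ± 1.13 (1.14, adjusted p = 0.00147). After scaling the difference was 0.67 (adjusted p = 0.0519), and without the globin-rich libraries it was 1.22 on the deposited scale. Dnajb11, another co-chaperone with the element, was not called (-0.26, adjusted p = 0.496). Dnajc3 and Dnajb11 are named for the element, chosen after their values were seen.

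Of the disulfide isomerases and oxidases, members included, 11 of 19 were tested. In wild type 7 were higher in PIR+ cells (all genes 40.6%) and 0 lower, with a median of 0.90 beside 0.51 for all tested genes. After scaling 4 were higher (all genes 11.5%) and 1 lower (all genes 11.0%), with a median of 0.39. In KO 4 were higher before scaling (all genes 22.5%) and 2 after it, and none was lower. The one with the largest difference among genes with a mean of at least 20 was Erp29, which encodes a thioredoxin-fold protein of the ER lumen that lacks the active-site motif of the isomerases. It was 37.4, 40.1 and 58.3 in PIR+ wild type against 14.3, 7.7 and 12.4 in PIR- wild type. In KO it was 46.0, 36.2 and 53.2 against 14.8, 19.6 and 15.4. In both genotypes the subsets were far apart. Erp29 rose 3.74-fold in wild type (1.90 ± 0.25, adjusted p = 2.56e-10; after scaling 1.42, adjusted p = 4.36e-06) and 2.61-fold in KO (1.38 ± 0.25, adjusted p = 3.81e-06; after scaling 0.99, adjusted p = 0.000728).

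Stress sensors and regulators were mostly too low to test, with 8 of 22 passing the filter. Ern1, Eif2ak3, Ddit3 and Ppp1r15a, which encode IRE1, PERK, CHOP and GADD34, were among those that did not. In wild type 3 were higher (all genes 40.6%) and 0 lower, and after scaling 0 were higher and 2 lower. Atf6, the factor that is cut in the Golgi and then binds the ER stress response element, was 10.1 ± 2.10 in PIR+ and 3.40 ± 1.21 in PIR- cells of wild type (1.35 ± 0.40, adjusted p = 0.00509; after scaling 0.93, adjusted p = 0.0665), and 8.37 ± 2.68 and 2.50 ± 1.25 in KO (1.44, adjusted p = 0.00426; after scaling 1.11, adjusted p = 0.0358). It is under the level set for naming and was picked after its values were seen. Without the globin-rich libraries its wild-type difference was 1.36, and without PIR- KO replicate 2 its KO difference was 1.14 (adjusted p = 0.0518). The list of Atf4 target genes had 11 of 24 tested, with 3 higher and 0 lower in wild type, and 0 higher and 2 lower after scaling. In KO none was called before scaling and 1 was lower after it, Psat1 (-0.53, adjusted p = 0.0143), a later enzyme of serine synthesis named after its values were seen. Its median was 0.29 before and -0.19 after scaling, beside 0.51 and 0.02 for all tested genes. Phgdh, the first enzyme of serine synthesis, was 148 ± 9.80 in PIR+ and 98.1 ± 12.3 in PIR- cells of wild type (0.59, adjusted p = 0.00645; after scaling 0.08, adjusted p = 0.673).

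ER-associated degradation, which returns misfolded proteins to the cytosol, had 14 of 23 genes tested. In PIR+ wild type 7 were higher (all genes 40.6%) and 1 lower, and after scaling 1 was higher and 2 were lower. The one lower before scaling was Syvn1, which encodes the ubiquitin ligase HRD1 and whose promoter held an ER stress response element. It was 7.6, 6.6 and 5.4 in PIR+ wild type against 18.6, 17.0 and 30.3 in PIR- wild type. In KO it was 6.7, 6.9 and 8.4 against 9.5, 19.0 and 27.2. All PIR+ libraries lay below all PIR- libraries, though PIR- KO replicate 1 came close. Syvn1 fell by 1.57 on the log2 scale in wild type (SE 0.31, adjusted p = 1.98e-05; after scaling -2.05) and by 1.12 in KO (adjusted p = 0.00358; after scaling -1.48), which without PIR- KO replicate 3 was -0.80 (adjusted p = 0.0608). Os9, a lectin of the same pathway, went the other way in wild type, at 22.9 ± 5.70 against 9.13 ± 2.40 (1.24, adjusted p = 0.000236; after scaling 0.76, adjusted p = 0.0146).

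Genes of the steps before and after folding were counted in the same way. In PIR+ wild type 15 of 23 tested translocon and signal peptidase genes were higher, 9 of 17 for N-glycan transfer and the lectin cycle, and 8 of 20 for KDEL receptors and COP coats, with 0 lower in each, beside 40.6% of all tested genes called higher. After scaling the counts were 2 higher and 1 lower, 2 and 0, and 0 and 0. Sec61a1, the channel of the translocon, was 41.2 ± 2.36 in PIR+ and 20.5 ± 3.20 in PIR- cells of wild type (0.98, adjusted p = 0.000380; after scaling 0.48, adjusted p = 0.0283). Dad1, a subunit of the oligosaccharyltransferase, was 62.3 ± 9.43 and 29.4 ± 3.52 (1.05, adjusted p = 3.15e-05; after scaling 0.55, adjusted p = 0.00633). Tmed10, a cargo receptor of the early secretory path, was 67.1 ± 8.46 and 36.3 ± 1.76 (0.86, adjusted p = 0.000533). After scaling the Tmed10 difference was 0.36 (adjusted p = 0.0510), and without the globin-rich libraries it was 0.84 on the deposited scale. Of the chaperones of other compartments, 14 of 24 cytosolic and 5 of 10 mitochondrial ones were higher on the deposited scale (all genes 40.6%), and 1 and 0 after scaling. Between KO and wild type, no gene of these 10 lists was called in either subset on the deposited scale. After scaling 2 were called, both in PIR+ cells, Calr lower and Prdx4, an ER peroxiredoxin of the isomerase and oxidase list, higher (0.65, adjusted p = 0.0490; before scaling 0.75, adjusted p = 0.118). Prdx4 was named after its values were seen.

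By list, the ER stress response element or its second form was found in 7 of 18 ER chaperones and cofactors with a promoter (38.9%), 1 of 15 isomerases and oxidases, Pdia6, 3 of 14 degradation genes (Derl3, Herpud1 and Syvn1) and 1 of 17 N-glycan genes, Krtcap2. The other 6 lists had 0, and all genes 0.181%. Of the 9 tested genes with an element, Calr, Hspa5, Canx, Pdia6, Dnajc3 and Krtcap2 (0.52, adjusted p = 0.0385) were higher in PIR+ wild type, beside 40.6% of all tested genes. Hsp90b1 and Dnajb11 were not called and Syvn1 was lower. The Krtcap2 call was lost without PIR+ wild-type replicate 2 (adjusted p = 0.0869) or 3 (0.111), or PIR- wild-type replicate 1 (0.0525) or 2 (0.243). Without the globin-rich libraries its difference was 0.35. After scaling Calr and Pdia6 remained higher and Syvn1 lower. Creld2, Derl3 and Herpud1 were too low to test.

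Markers of cell types moved with the subsets, and their part in the members' differences was not tested. B lineage markers, 13 of 14 above 0 in some library, summed to 46.7 to 81.3 in PIR+ and 980.4 to 1293.3 in PIR- cells of wild type, and to 43.1 to 63.7 and 852.7 to 1332.0 in KO. Dntt was at 0 in all libraries. Plasma cell markers, among which Xbp1 itself is counted, summed to 57.7 to 73.6 and 130.9 to 165.3 in wild type and to 62.4 to 85.9 and 148.7 to 202.0 in KO. Prdm1 and Tnfrsf17, which define plasma cells, were at 0 throughout. Most of the PIR- sum was Mzb1, an ER protein of B cells that works with GRP94, which was 29.8 ± 4.14 in PIR+ and 116 ± 17.4 in PIR- cells of wild type (-1.93 ± 0.21, adjusted p = 1.83e-13; after scaling -2.44).

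Stem and multipotent progenitor markers went the other way, at 320.5 to 406.9 in PIR+ and 45.2 to 50.9 in PIR- wild type, and 403.7 to 488.2 and 84.3 to 106.5 in KO. So did neutrophil and monocyte markers, at 100.1 to 130.8 and 8.6 to 24.5 in wild type and 89.5 to 149.6 and 28.9 to 57.2 in KO, with Ctsg, S100a9, Camp and Ngp at 0. T and NK lineage markers summed to 64.7 to 101.9 in PIR+ wild type, 18.2 to 34.2 in PIR+ KO and at most 2.4 in PIR- cells, with Cd3e, Cd3d, Bcl11b and Ncr1 at 0. Hepatoblast markers, those of the liver's own secretory cells, summed to 12.3 to 82.0 over all libraries, the highest in PIR- wild-type replicate 3, where Alb was 29.5. That library was also the highest of its group for Hspa5 and Canx. Erythroid markers ranged from 68.6 to 1871.3, with overlap between all 4 groups. Macrophage markers summed to at most 9.3, megakaryocyte markers to at most 19.1, and mast cell and basophil markers, 8 of 11 at 0 throughout, to at most 17.5.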

How the data were processed

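The signal values the authors deposited, for 23420 genes in 12 libraries, are counts of barcoded molecules divided by one factor per library. Per the labels' protocols, each tube received a fixed amount of spike-in RNA, and poly(A) RNA was copied with a primer carrying a molecular barcode. TopHat2, DESeq2 and the build mm10 are named per the submitters' processing notes. For versions, the counting tool, its use of strand and the making of the factor, the entry is: not given in the sources used here. Between 93.0% and 94.2% of values up to 15 in a library lay within 0.055 of a multiple of its smallest step (0.490 to 0.775), so whole counts were not claimed and molecules are estimates, value over step. The authors also deposited 2 p-value columns, quoted by name.

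All 12 libraries were fitted with limma 3.58.1 (R 4.3.3), with a trended prior and 4 group means, on log2(value + 1) for the 4542 genes with at least 10 in 3 libraries. P-values were Benjamini-Hochberg adjusted within each comparison, over all these genes. The procedure was checked on simulated data. Alternatives were median-of-ratios and library-sum scaling, an added constant of 0.1, no filter, a mean of at least 20, only the groups compared, a replicate block, embryonic day as a term, the 6 libraries whose 2 label fields give the same PIR sign, no globin-rich libraries, and each library left out.

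The members and gene lists were chosen with earlier results of these data known. From each pathway list up to 3 called genes per comparison could be named, those with the largest fold change whose higher group averaged 20 or more, with the 5 genes most like Hspa5 and most like Xbp1. Promoters came from RefSeq (GRCm38.p6) and gene positions from GENCODE M21 (GRCm38). Protein sequences were not used here. Plots came from matplotlib 3.10.9 under Python 3.11.15.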

Additional observations from a re-analysis of the deposited data

How the results depend on the processing

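The count of members called between PIR+ and PIR- cells depended on scaling, on the filter and on single libraries. In wild type it was 6, and it was 3 to 7 with each library left out in turn, the lowest without PIR+ wild-type replicate 3 or PIR- wild-type replicate 1. In KO it was 3, and it was 0 after median-of-ratios or library-sum scaling and without the globin-rich libraries. With a mean of at least 20 it was 1, but that filter leaves Pdia3 and Xbp1 untested. With each library left out it was 0 to 4, the lowest without PIR+ KO replicate 3 or PIR- KO replicate 1. Averaged over genotypes it went from 6 to 2 after median-of-ratios scaling. For KO against wild type in PIR+ it was 0, and 1 (Calr) under either scaling. Averaged over subsets it was 0. Without a filter, Hspa5 (adjusted p = 0.116) and Canx (0.105) lost their calls between the wild-type subsets. Pdia3 lost its call in KO (0.0877) and Hspa5 in the average over genotypes (0.108). With embryonic day as a term, the wild-type call of Canx was lost (0.0536), and the scaled one of Pdia6 (0.0546). The replicate block also took away the scaled Pdia6 call (0.0584). The 6 libraries whose label fields match hold PIR+ KO replicate 3 and PIR- wild-type replicate 1 alone in their groups. In those 6 the KO difference averaged over subsets was 0.76 for Xbp1 and 0.55 for P4hb, and only these sizes are given. Among called values, median-of-ratios scaling turned the sign of Hspa5 (-0.012) and Canx (-0.042) in wild type. The sign of Hspa5 averaged over genotypes turned as well (-0.12 after median-of-ratios and -0.056 after library-sum scaling). Scaling shifts all genes by construction. Of 1345 member values under an alternative, 58 lost a call at the same sign, the 4 above lost it with a turned sign, 24 gained one, and 68 changed sign with neither value called. Re-fits of the scaled calls, and of the list genes, were chosen after seeing the data.

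Replicate numbers did not pair the samples: deviations of same-numbered libraries correlated between -0.106 and 0.162. With the replicate block the count in PIR- cells went from 0 to 1 for KO against wild type (Pdia6, 0.57, adjusted p = 0.0379), Pdia3 in wild type was called (adjusted p = 0.0395), and Hsp90b1 and Canx were called in the average (0.0351 and 0.0116). Counting limits Pdia4, Pdia3 and Xbp1 most, at 4, 9 and 13 estimated molecules in the lowest library.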
